A study of Mus musculus with 12 samples.

Results

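Plagl1, F11r, Zfp185, Zfp382, Gpr146, Iqsec2, Slc27a2, Mamld1 and Pcdh7 are genes that the study's table links to CpG sites whose methylation differs between Tg and Wt mice, and they are 9 of the 15928 genes in the RNA-seq count table. Their RNA was measured in brain sections holding dorsal hippocampus and cortex from 12 mice of about 11 months by the labels. The 5 Wt mice (3 labelled female, 2 labelled male) carried no transgene, and the 7 Tg mice (4 labelled female, 3 labelled male) were of the Tg2576 strain, which carries human APP with the Swedish mutation. Each library came from 1 mouse, and libraries were made in 2 batches, with 3 Wt and 5 Tg mice in batch 1 and 2 Wt mice labelled female and 2 Tg mice labelled male in batch 2. The deposited counts have no gene names. A name was given only where the mean normalized count of 1 gene of the count table matched 1 mean in the study's own table of Tg and Wt differences, which paired 1349 genes. That table holds genes near the top of the study's own ranking of Tg against Wt, so the Tg minus Wt differences of the members helped to decide that they could be named, and they are given here as descriptions. The contrast of the sexes was not used in the naming, though it rests on the same mice. Of 182 genes on the list of linked genes 15 could be named, and the 6 not described here differed between Tg and Wt by -0.35 to 0.49 on the log2 scale with none called. The methylation values themselves were not analysed here.

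Cytosine in a CG dinucleotide is the base that vertebrate DNA methyltransferases mark, and the start sites of many widely expressed genes lie in CG-rich stretches that are mostly unmethylated. Methylation of such a stretch is commonly accompanied by silence of the gene, as on the inactive X chromosome of females and at imprinted genes, where 1 parental copy is marked. The members do unrelated work. Plagl1 encodes a zinc finger transcription factor and is itself imprinted, with expression from the paternal copy. Zfp382 encodes a zinc finger protein with a KRAB domain, a domain found in many repressors of transcription, and Mamld1 a nuclear protein with a mastermind-like domain. F11r encodes the junctional adhesion molecule JAM-A of epithelial, endothelial and blood cells, Pcdh7 a protocadherin of the neuronal surface, and Zfp185 a LIM domain protein that binds actin. Iqsec2 encodes an exchange factor for Arf GTPases at excitatory synapses, Slc27a2 a fatty acid transporter that also activates very long-chain fatty acids, and Gpr146 a G protein-coupled receptor.

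The 9 genes lie on 6 chromosomes, with Zfp185, Iqsec2 and Mamld1 on the X chromosome and the other 6 on autosomes. On GRCm38 (mm10), with GENCODE M21 gene bounds, Plagl1 spans chr10:13060504-13131694, F11r chr1:171437535-171464603, Zfp185 chrX:72987339-73031543, Zfp382 chr7:30121942-30134950 and Gpr146 chr5:139377697-139396415. Iqsec2 spans chrX:152144268-152225236, Slc27a2 chr2:126552407-126588243, Mamld1 chrX:71050256-71156056 and Pcdh7 chr5:57717967-58133230. All 9 lie on the plus strand and encode proteins. Exons of Pcdh7 share 2235 of 10604 bases with the antisense transcript 4932441J04Rik, and those of Slc27a2 share 419 of 3754 bases with the antisense Gm26697. Whether the counting used strand is not given in the sources used here, so reads in these stretches may come from either gene.

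RefSeq (GRCm38.p6) gives 12 start sites for the 9 genes, and the 250 bases before each start were searched for CG, which reads alike on both strands. Over all 32851 such windows of the mouse table the median number of CG was 6, the upper quartile began at 16 and 92.1% held at least 1. The sequences below show the densest windows of the set, those of Iqsec2, Mamld1 and Zfp382, beside the sparser ones of Zfp185 and Gpr146, each ending at the base before the start and with every CG in capitals. They were chosen from windows that hold no annotated exon base. They are chrX:152144018-152144267 for Iqsec2, chrX:71050006-71050255 for Mamld1, chr7:30121682-30121931 for Zfp382, chrX:72987089-72987338 for Zfp185 and chr5:139377447-139377696 for Gpr146, all on the plus strand.
Iqsec2: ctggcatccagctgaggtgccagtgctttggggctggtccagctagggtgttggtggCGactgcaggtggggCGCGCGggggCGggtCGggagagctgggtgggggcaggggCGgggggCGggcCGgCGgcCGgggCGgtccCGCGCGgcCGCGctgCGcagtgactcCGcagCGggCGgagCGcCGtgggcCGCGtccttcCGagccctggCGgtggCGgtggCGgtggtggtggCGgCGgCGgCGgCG
Mamld1: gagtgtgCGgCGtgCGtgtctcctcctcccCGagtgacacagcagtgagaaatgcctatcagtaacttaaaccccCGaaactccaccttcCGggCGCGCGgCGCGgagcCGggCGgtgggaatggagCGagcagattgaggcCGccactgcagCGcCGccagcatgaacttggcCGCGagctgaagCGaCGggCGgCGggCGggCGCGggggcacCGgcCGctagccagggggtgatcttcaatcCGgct
Zfp382: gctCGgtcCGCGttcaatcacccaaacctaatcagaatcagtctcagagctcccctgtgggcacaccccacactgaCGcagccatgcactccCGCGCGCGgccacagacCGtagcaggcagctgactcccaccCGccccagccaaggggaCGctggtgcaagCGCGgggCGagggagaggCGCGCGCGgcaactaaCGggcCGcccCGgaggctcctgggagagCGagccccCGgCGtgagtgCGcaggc
Zfp185: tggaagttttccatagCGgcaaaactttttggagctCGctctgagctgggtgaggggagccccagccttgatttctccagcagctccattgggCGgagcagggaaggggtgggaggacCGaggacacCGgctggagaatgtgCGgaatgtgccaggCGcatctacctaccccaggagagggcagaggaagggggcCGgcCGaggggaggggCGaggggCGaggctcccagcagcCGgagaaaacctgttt
Gpr146: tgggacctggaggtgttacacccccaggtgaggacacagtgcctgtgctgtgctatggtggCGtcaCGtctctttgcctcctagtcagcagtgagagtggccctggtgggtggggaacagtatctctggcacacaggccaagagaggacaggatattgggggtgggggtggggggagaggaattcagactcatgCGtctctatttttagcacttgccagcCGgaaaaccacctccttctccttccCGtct

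Iqsec2 held 34 CG in this window, more than 96.5% of all windows, and its sequence ends in a run of CGG repeats interrupted by TGG. Mamld1 held 29 and Zfp382 25, some of them in runs of CGCG. Zfp185, on the same chromosome as Iqsec2 and Mamld1, held 12, spread over the window. The Gpr146 window held 5, while the window of its next start site held 25 and that of its last start held 3. The other members held 19 (Plagl1 and Slc27a2), 17 (F11r) and 7 (Pcdh7), and the internal start of Iqsec2 held 0. How far the listed sites lie from these windows is not described here.

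**Figure D1:**
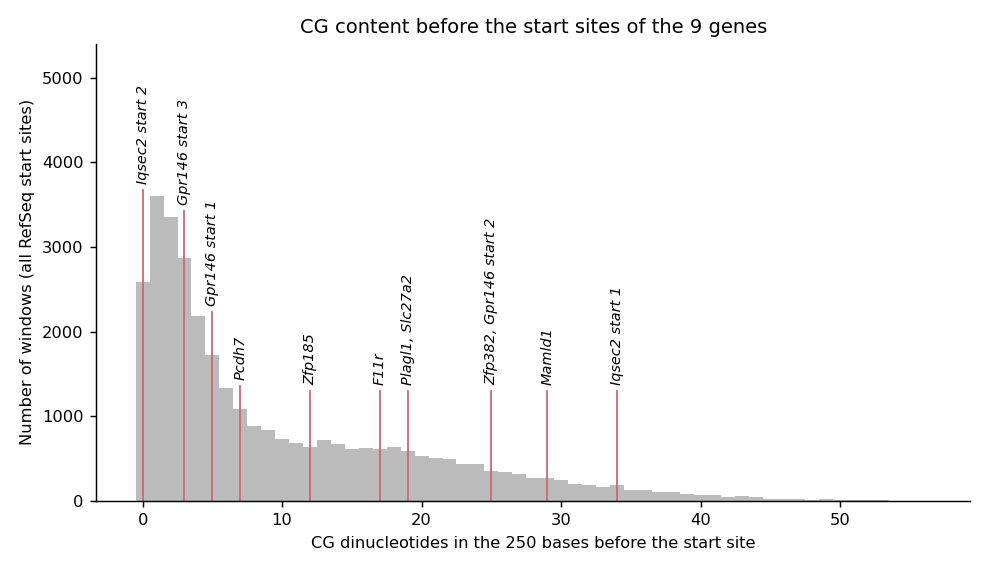
Number of RefSeq start sites (vertical axis) by the number of CG in the 250 bases before the start (horizontal axis), with grey bars for all 32851 windows and red lines for the 12 windows of the 9 genes. The Iqsec2 window with 34 CG and the Mamld1 window with 29 sit in the right tail, and the internal Iqsec2 start holds 0.

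The mice were sequenced to between 15768135 and 20996174 counts each. App, the mouse counterpart of the transgene, lay between 1214 and 1496 CPM (counts scaled to the size of each library, TMM-normalized) in Wt mice and between 2991 and 5727 in Tg mice, as the genotype labels say. Xist, the RNA that coats the inactive X, lay between 149.5 and 233.4 CPM in the 7 mice labelled female and at no more than 1 read in 4 of the 5 labelled male, but Wt mouse 41, labelled male, had 198.9 CPM. The Xist level of mouse 41 goes against its label, and values without it are given beside the results. Markers of choroid plexus, the ventricular tissue that makes cerebrospinal fluid, were higher in Tg than in Wt mice for 16 of 16 that could be named (median log2 difference 2.16), with summed levels of 104.9 to 598.8 CPM in Wt and 101.0 to 2371 CPM in Tg mice. The same held for 14 of 14 oligodendrocyte markers (median 0.96, sums of 1141 to 3784 CPM in Wt and 1561 to 6321 CPM in Tg mice), and of the choroid plexus markers 4 were at 0 in at least 1 mouse. No marker passed the test singly, and their names come from the same selected table. The sections held neuronal RNA in every mouse, with summed levels of 4182 to 6409 CPM in Wt and 3619 to 4889 CPM in Tg mice over the 7 neuronal markers that could be named. In a bulk section, fewer cells of a type and less RNA per cell cannot be told apart.

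Every member was counted in every mouse, and the levels spanned more than an order of magnitude. Per kilobase of exon, the synaptic gene Iqsec2 was highest, at 24.1 ± 5.69 CPM per kb (SD, n = 5) in Wt and 20.9 ± 2.73 (SD, n = 7) in Tg mice, beside Pcdh7 at 21.6 ± 3.27 and 19.1 ± 1.63. These 2 neighbours in the order differed by less than their spread. Mamld1 followed at 5.20 ± 0.761 CPM per kb in Wt mice and Zfp382 at 4.79 ± 1.42, again within their spread. Gpr146 had 2.93 ± 0.436, Plagl1 2.74 ± 0.148, F11r 2.11 ± 0.373 and Slc27a2 1.74 ± 0.0918 CPM per kb in Wt mice. Of these, Gpr146 and Plagl1 differed by less than their spread between Wt mice, and so did F11r and Slc27a2. In Tg mice they lay farther apart. Gpr146 had 3.71 ± 0.600 and Plagl1 2.14 ± 0.321, and F11r had 2.92 ± 0.575 and Slc27a2 1.40 ± 0.181 CPM per kb. Zfp185 was lowest by a wide gap, at 0.278 ± 0.0829 CPM per kb in Wt and 0.596 ± 0.355 in Tg mice. Its counts ran from 11 to 63 reads, and 11 reads alone carry an exact Poisson 95% interval of 5.49 to 19.7, which covers counting error only. At the other end, the lowest count of Pcdh7 was 2819 reads, a counting error of 1.88%.

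**Figure D2:**
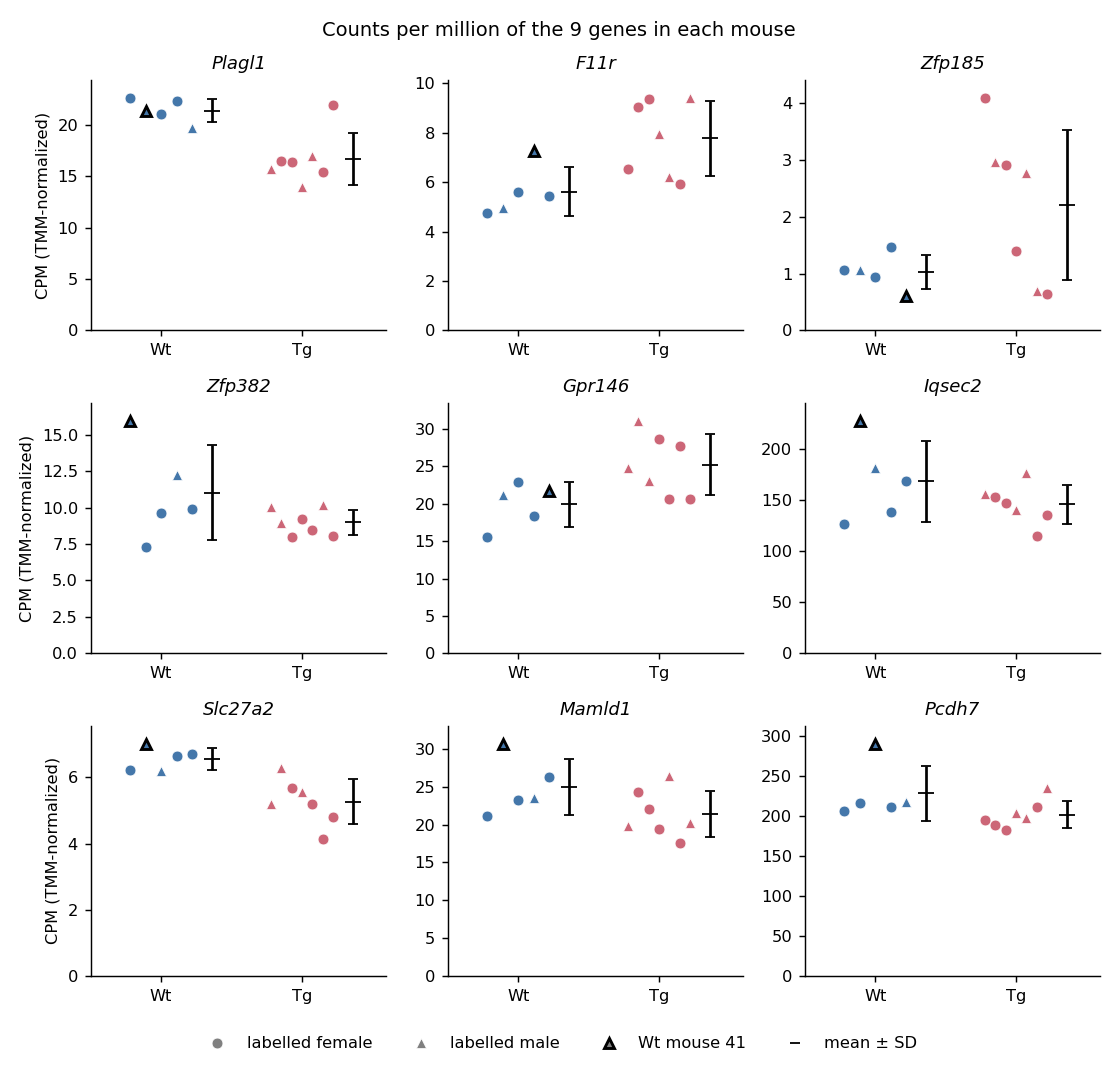
TMM-normalized CPM (vertical axes, from 0) of each of the 9 genes in the 5 Wt (blue) and 7 Tg (red) mice, with circles for mice labelled female, triangles for mice labelled male, a black outline for Wt mouse 41, and bars for the mean ± SD. Mouse 41 is the highest of all mice for Zfp382, Iqsec2, Slc27a2, Mamld1 and Pcdh7, and the lowest for Zfp185.

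The comparison of Tg with Wt describes the RNA of the 9 members by genotype. Since only genes near the top of the study's ranking could be named, it cannot tell whether genes near differentially methylated sites differ in general. The study itself found no gene shared between its differentially expressed genes and its linked genes. Zfp185, F11r and Gpr146 had higher mean levels in Tg mice and the other 6 had lower ones, with fitted log2 differences from -0.36 to 1.17. No member was called: of 15928 genes tested with edgeR, 1 (App, 0.00628%) passed an adjusted p under 0.1, and the adjusted p of the members ran from 0.611 to 0.678. At an unadjusted p under 0.05 all 9 members passed, against 7.19% of all genes, but this share follows from how the names were obtained and nothing is read from it. DESeq2 called 56 genes (0.352%), none of them a member. The median log2 difference was -0.0030 over all genes tested, 0.32 over the 1349 named genes and -0.22 over the members. Named genes were selected on this contrast, so nothing is read from the members' median either.

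Of the transcription regulators, Plagl1 stood at 21.1, 22.6, 22.3, 21.3 and 19.7 CPM in Wt mice 12, 79, 80, 41 and 95. In Tg mice its lowest, median and highest levels were 14.0, 16.4 and 21.9 CPM. So 6 of the 7 Tg mice lay below every Wt mouse, and the exception was Tg mouse 92. The fitted log2 difference was -0.36 ± 0.11 (SE; edgeR adjusted p = 0.611). Without mouse 92 it was -0.42. Leaving out the exception necessarily ended the overlap of the groups, and over all genes 0.571% did not overlap in that setting. The log2 difference of Plagl1 was -0.37 ± 0.14 (SE) with the choroid plexus score in the fit, -0.29 ± 0.14 with the oligodendrocyte score and -0.34 ± 0.12 without mouse 41. Each score is a mean over markers that were all higher in Tg mice and were named from the table ranked on this contrast. A score in the fit can therefore take up part of a genotype difference, here and for the genes below.

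Zfp382 stood at 9.63, 9.90, 7.33, 15.9 and 12.3 CPM in the same order of Wt mice, and at 7.99, 8.97 and 10.2 CPM (lowest, median, highest) in Tg mice. The groups overlapped fully, since the Tg range lay inside the Wt range, and mouse 41 set the top of the latter. The log2 difference of -0.30 ± 0.12 (SE) became -0.21 without mouse 41. Mamld1 stood at 26.3, 21.1, 23.3, 30.6 and 23.5 CPM in Wt mice, and its lowest, median and highest Tg levels were 17.6, 20.2 and 26.4 CPM. For Mamld1, 4 of 7 Tg mice lay below every Wt mouse and the log2 difference was -0.25 ± 0.11 (SE), or -0.21 without mouse 41. It was -0.18 ± 0.13 (SE) with the choroid plexus score in the fit and -0.15 ± 0.14 with the oligodendrocyte score.

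Among the genes of the cell surface and cytoskeleton, F11r stood at 5.43, 4.77, 5.62, 7.27 and 4.95 CPM in Wt mice and at 5.92, 7.94 and 9.40 CPM (lowest, median, highest) in Tg mice. Mouse 41 was the highest Wt mouse and the only one within the Tg range. Without mouse 41 every Tg mouse therefore lay above every Wt mouse, while the groups did not overlap for 0.709% of all genes in that setting. The log2 difference was 0.47 ± 0.18 (SE; edgeR adjusted p = 0.625) with all mice, 0.61 without mouse 41 and 0.24 with the choroid plexus score in the fit. Within batch 1 it was 0.29.

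Zfp185 stood at 0.934, 1.47, 1.06, 0.611 and 1.07 CPM in Wt mice. Its Tg mice spread from 0.638 through a median of 2.78 to 4.09 CPM, so that 4 lay above every Wt mouse and the other 3 within the Wt range. The fitted ratio was 2.25, the largest of the set (log2 difference 1.17 ± 0.44, SE), and it fell to 1.37 when the choroid plexus score was added (0.46 ± 0.47, SE). The Tg mice with high Zfp185 were 91, 92, 68 and 69, which had choroid plexus sums of 2371, 1934, 2192 and 1839 CPM, whereas Tg mice 67 and 93, with 0.692 and 1.40 CPM of Zfp185, had sums of 101.0 and 101.4 CPM. Tg mouse 32, with 0.638 CPM of Zfp185, had a sum of 1315 CPM. The part of choroid plexus content in the Zfp185 difference was not tested beyond these values.

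Pcdh7 stood at 216.7, 206.6, 211.7, 290.1 and 217.8 CPM in Wt mice and at 183.0, 197.9 and 235.1 CPM (lowest, median, highest) in Tg mice. Of the Tg mice 5 lay below every Wt mouse, with the highest Tg mouse, 67, above 4 of the Wt mice. The log2 difference was -0.19 ± 0.084 (SE), and it moved to -0.12 without mouse 41 and to -0.10 with either marker score in the fit. The choroid plexus and oligodendrocyte scores ran closely together (Pearson's r = 0.93), so the fits with either score are not separate checks.

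Of the synaptic, metabolic and receptor genes, Iqsec2 stood at 168.6, 138.0, 126.2, 227.0 and 181.3 CPM in Wt mice and at 114.6, 146.7 and 175.9 CPM (lowest, median, highest) in Tg mice. All but 1 Tg mouse lay within the Wt range, and the log2 difference was -0.22 ± 0.091 (SE), or -0.17 without mouse 41. In batch 1 the mean was 192.3 CPM in 3 Wt and 145.1 CPM in 5 Tg mice, and in batch 2 it was 132.1 CPM in the 2 Wt females and 148.5 CPM in the 2 Tg males, where genotype and sex cannot be told apart.

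Slc27a2 stood at 6.65, 6.69, 6.21, 7.00 and 6.19 CPM in Wt mice and at 4.15, 5.20 and 6.29 CPM (lowest, median, highest) in Tg mice. Here too 6 of 7 Tg mice lay below every Wt mouse, the exception being mouse 67. The log2 difference of -0.32 ± 0.14 (SE) was also -0.32 without mouse 41 and -0.36 without mouse 67. Leaving out mouse 67, the exception, necessarily ended the overlap of the groups, and over all genes 0.465% did not overlap in that setting. Gpr146 stood at 18.4, 22.9, 15.5, 21.7 and 21.1 CPM in Wt mice and at 20.6, 24.8 and 31.0 CPM in Tg mice, 5 of which lay above every Wt mouse. Its log2 difference was 0.32 ± 0.13 (SE) with all mice and 0.47 within batch 1. With the choroid plexus score in the fit it was 0.30, and with the oligodendrocyte score 0.22 ± 0.17 (SE).

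**Figure D3:**
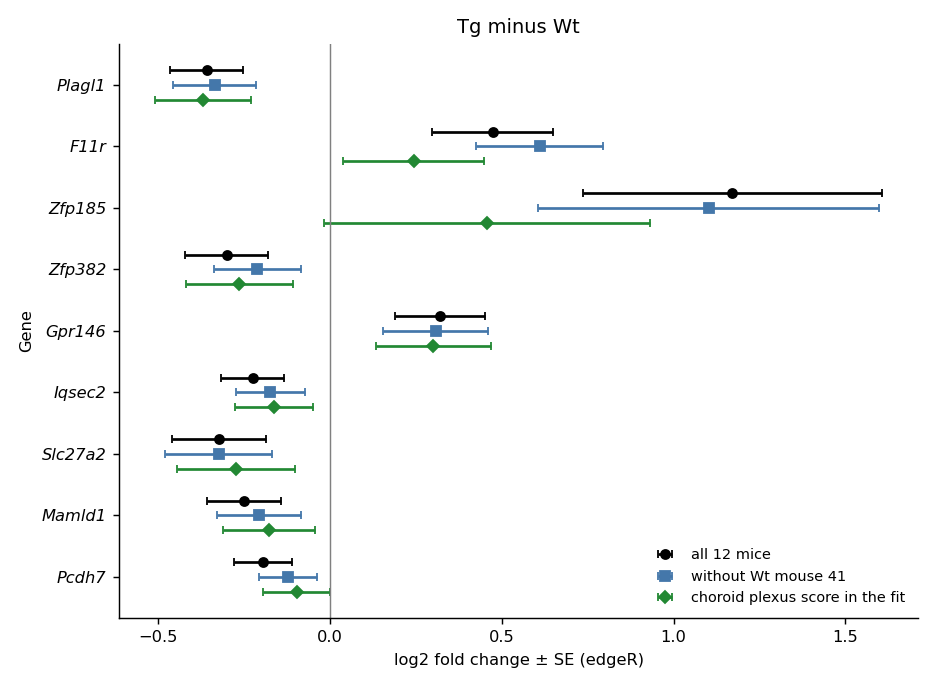
Log2 fold change of Tg minus Wt with its standard error (horizontal axis, edgeR) for each gene, with all 12 mice (black circles), without Wt mouse 41 (blue squares) and with the choroid plexus marker score in the fit (green diamonds). Zfp185 moves from 1.17 to 0.46 and F11r from 0.47 to 0.24 with the score, while Plagl1 stays at -0.36 to -0.37. The markers in the score were named from the table ranked on this contrast, so the score is not separate from genotype.

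Taking all mice, the groups overlapped for 9 of 9 members, and over the whole table they did not overlap for 0.333% of genes. The direction of every member was the same in each of the fits tried. Plagl1 and Gpr146 are listed beside sites with more methylation in Tg mice and the remaining members beside sites with less. Of the former pair Plagl1 was lower and Gpr146 higher in Tg mice, and of the remaining 7 genes 5 were lower and 2 higher.

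The contrast of the sexes is of interest because 3 members are X-linked and the naming did not use it. It rests on the same mice as the Tg and Wt contrast, however. Mouse 41, a Wt mouse labelled male, was the highest mouse for 5 of the 9 members, so the naming may still bear on the values below. The fitted difference, labelled female minus labelled male, was below 0 for 7 of 9 members, and Plagl1 and Zfp185 had the opposite sign. No gene of 15928 passed an adjusted p under 0.1 in edgeR (0%), and 1801 (11.3%) had an unadjusted p under 0.05, among them 3 of the 9 members. These were Iqsec2 with -0.36 ± 0.091 on the log2 scale (SE; edgeR adjusted p = 0.325), Zfp382 with -0.42 ± 0.12 (adjusted p = 0.332) and Pcdh7 with -0.20 ± 0.084 (adjusted p = 0.422).

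X-linked Iqsec2 had a lowest, median and highest level of 114.6, 138.0 and 168.6 CPM in the 7 mice labelled female. In the mice labelled male it was 227.0 (Wt 41), 181.3 (Wt 95), 175.9 (Tg 67), 156.3 (Tg 68) and 140.6 CPM (Tg 69). Thus 4 of 7 mice labelled female lay below every mouse labelled male, also when mouse 41 was set aside. Without mouse 41 the log2 difference was -0.30 ± 0.10 (SE; edgeR adjusted p = 0.920). DESeq2 called Iqsec2 with an adjusted p of 0.0707, among 175 genes (1.1%), and edgeR did so without Wt mouse 95, with an adjusted p of 0.0682, among 540 genes (3.39%). Both calls counted mouse 41, whose Xist level goes against its label, as male. Without mouse 95 it was the only Wt mouse labelled male. In batch 1 alone, which also held mouse 41, the log2 difference was -0.32 ± 0.14 (SE), with an unadjusted p of 0.0461 in edgeR.

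Zfp382, which is autosomal, lay between 7.33 and 9.90 CPM in mice labelled female, with a median of 8.46. In mice labelled male it stood at 15.9 (Wt 41), 12.3 (Wt 95), 10.2 (Tg 67), 10.1 (Tg 68) and 8.97 CPM (Tg 69). Again 4 of 7 lay below every mouse labelled male, and without mouse 41 the log2 difference was -0.32 ± 0.13 (SE; edgeR adjusted p = 0.920). Pcdh7 moved from -0.20 to -0.12 without mouse 41.

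The other X-linked members were not among these: Mamld1 had a log2 difference of -0.16 ± 0.11 (SE) and Zfp185 of 0.39 ± 0.44. F11r changed sign, from -0.10 with all mice to 0.050 without mouse 41. The difference between the sexes in Tg minus Wt was also tested. It ran from -0.36 to 1.43 on the log2 scale over the members, with standard errors of 0.25 to 1.31, and none had an unadjusted p under 0.05 (edgeR, 0% of all genes called and 3.56% with an unadjusted p under 0.05). Without mouse 41 it ran from -0.50 to 1.78, with standard errors of 0.23 to 1.43 and again no member with an unadjusted p under 0.05.

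**Figure D4:**
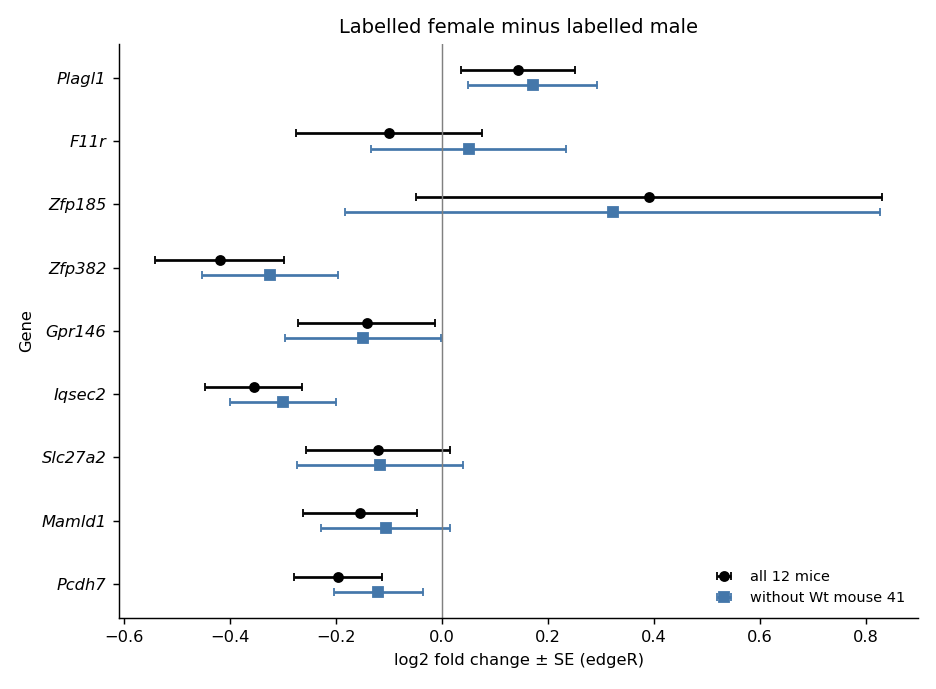
Log2 fold change of mice labelled female minus mice labelled male with its standard error (horizontal axis, edgeR) for each gene, with all 12 mice (black circles) and without Wt mouse 41 (blue squares). Iqsec2 lies at -0.36 and -0.30 and Zfp382 at -0.42 and -0.32, and F11r crosses 0.

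How the members varied together was described over the 12 mice as Pearson's r of log2 CPM. Iqsec2, Zfp382 and Pcdh7 ran together, with r = 0.91 for Iqsec2 and Zfp382, 0.84 for Iqsec2 and Pcdh7 and 0.83 for Zfp382 and Pcdh7. Mouse 41 was the highest mouse for all of these genes, and without it the values were 0.82, 0.69 and 0.54. F11r and Zfp185 had r = 0.65, or 0.76 without mouse 41, and Plagl1 and Gpr146 had r = -0.71, or -0.72 without it. These values share the same libraries, scaling and difference in genotype.

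**Figure D5:**
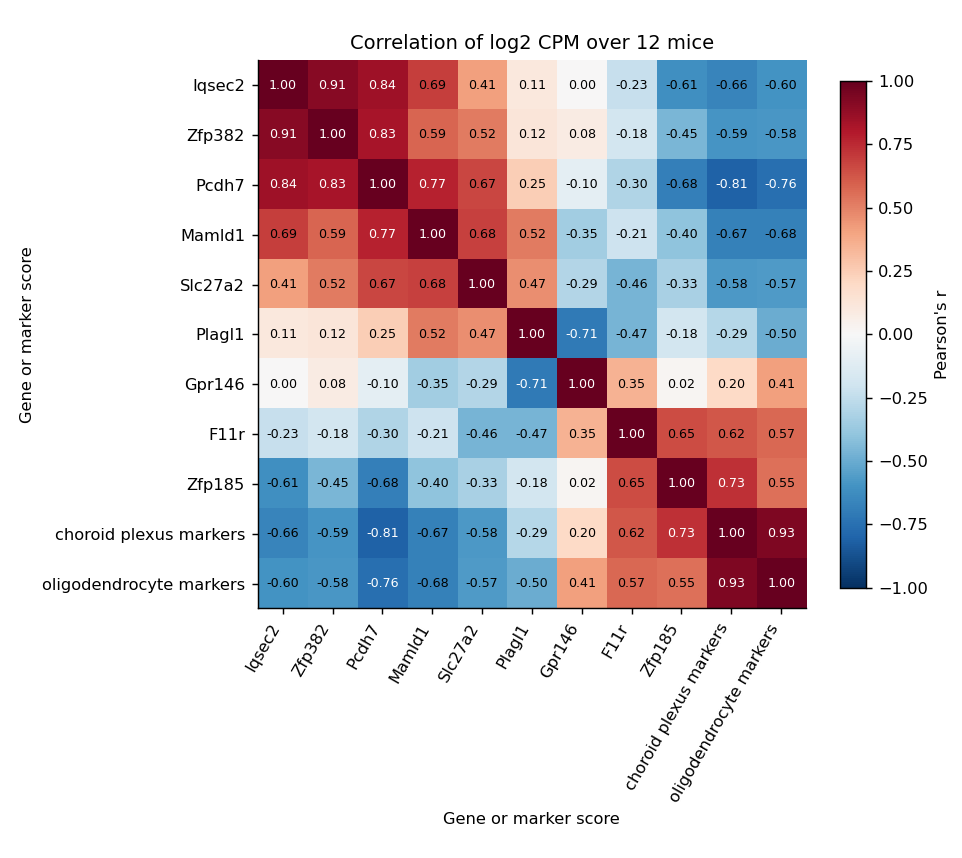
Pearson's r of log2 CPM over the 12 mice (colour, from -1 in blue to 1 in red, with the value in each cell) between the 9 genes and the mean log2 CPM of the choroid plexus and oligodendrocyte markers. Pcdh7 has -0.81 and -0.76 with the marker scores, while Zfp185 has 0.73 and 0.55.

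Among all named genes, Ctnnd2 and Dlgap2 were among those closest to Iqsec2 (0.98 each). Those closest to Pcdh7 were the synaptotagmin Syt7 (0.97), Irgq (0.95) and Slc12a5, the neuronal potassium chloride cotransporter (0.95). D8Ertd82e (0.96) and Clstn1 (0.95) were among those closest to Zfp382, and Mamld1 ran closest to Gfod1 (0.93), Farp1 (0.93) and D430041D05Rik (0.90). F11r ran closest to Cdkn1c (0.92), an imprinted inhibitor of the cell cycle, the leptin receptor gene Lepr (0.90) and Rbm47 (0.85). Plagl1 was closest to Zhx2 (0.88), Pip5k1a and Prkci (0.87 each), and Slc27a2 to AW011738 (0.91), RP24-429G21.5 (0.84) and Ism1 (0.81). Zfp185 ran closest to Gm25615 (0.94), Gm24760 (0.91) and Pla2g16 (0.85), and Gpr146 to Gm26467, Gm25087 (0.94 each) and Gm26444 (0.92). Without mouse 41 the r of these genes with their members lay between 0.77 and 0.96.

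Marker levels of other tissue differed among the mice. Each member was therefore set against the mean log2 CPM of the choroid plexus and of the oligodendrocyte markers, 18 relations in all. The choroid plexus and oligodendrocyte scores themselves ran closely together over all mice (Pearson's r = 0.93). A member's relation to one score is therefore not separate from its relation to the other. Members and markers were both named from the table ranked on Tg against Wt, so the genotype difference can enter each relation over all mice. The permutations did not keep genotype or batch together, and their p-values take no account of either. Pcdh7 fell as the choroid plexus score rose, with Pearson's r = -0.81 (permutation p = 3e-05, adjusted 0.00054) and Spearman's rho = -0.90 (permutation p = 0.00016, adjusted 0.00288). Without the 2 mice farthest from the median score (41 and 67) r was -0.80 and the relation no longer passed (permutation, adjusted p = 0.0649 for r and 0.0803 for rho). Without mouse 41 alone r was -0.85 (adjusted p = 0.0142, permutation). In Tg mice alone, chosen after seeing the data, r was -0.87 (permutation, adjusted p = 0.0429) and rho -0.86 (adjusted p = 0.216). The Pcdh7 relation to the oligodendrocyte score had r = -0.76 (permutation p = 0.0012, adjusted 0.0108) and rho = -0.76 (p = 0.00526, adjusted 0.0473). It no longer passed without mouse 41 (r = -0.67, permutation, adjusted p = 0.103) or without mice 41 and 91 (r = -0.60, adjusted p = 0.218).

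No other relation passed an adjusted p under 0.05 over all mice. Zfp185 rose with the choroid plexus score with r = 0.73 and rho = 0.72 (permutation p = 0.0105 each, adjusted 0.0547 and 0.0534), and r was 0.67 without mouse 41 and 0.60 without mice 41 and 67. F11r had r = 0.62 and rho = 0.57 (permutation p = 0.0354 and 0.059, adjusted 0.0729 and 0.133), and r was 0.76 without mouse 41 and 0.83 without both mice. Iqsec2 had r = -0.66 and rho = -0.66 (permutation p = 0.0182 and 0.0221, adjusted 0.0547 and 0.0794), and r was -0.52 without mouse 41 and -0.40 without both mice. Mamld1 had r = -0.67 and rho = -0.64 (permutation p = 0.0175 and 0.0301, adjusted 0.0547 and 0.0904), and r was -0.55 without mouse 41 and -0.42 without both mice. With the oligodendrocyte score Mamld1 had r = -0.68 and rho = -0.71 (permutation p = 0.0158 and 0.0119, adjusted 0.0547 and 0.0534). Zfp382 and Slc27a2 had r = -0.59 and -0.58 with the choroid plexus score (permutation, adjusted p = 0.0729 and 0.0757). Within batch 1, r with the choroid plexus score was -0.84 for Pcdh7 and Iqsec2, -0.79 for Zfp382, 0.65 for Zfp185, -0.62 for Mamld1, -0.58 for Slc27a2 and 0.57 for F11r. There 6 relations passed by Pearson's r, those of Pcdh7, Iqsec2 and Zfp382 with both scores, and 0 passed by Spearman's rho, with a smallest adjusted p of 0.0643 by permutation. No correlation was computed in batch 2, which held 4 mice. Plagl1 and Gpr146 were the members least related to the choroid plexus score, with r = -0.29 (permutation p = 0.355, adjusted 0.376) and r = 0.20 (permutation p = 0.531, adjusted 0.531), rho = -0.25 and 0.22 (permutation p = 0.43 and 0.499, adjusted 0.456 and 0.499), and r = -0.39 and 0.59 without mice 41 and 67. Without mouse 41 alone r was -0.19 for Plagl1 and 0.19 for Gpr146, and within batch 1 it was -0.038 and 0.10.

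Genes that work beside the members were taken from lists, of which only the genes in the naming table can be reported, so that their directions in Tg minus Wt are selected as well. None passed the test in edgeR. Of 27 junction adhesion and tight junction genes other than F11r, 7 were named: 6 were higher in Tg mice, among them Jam3, of the same family as F11r (0.34 ± 0.14, log2, SE), Esam (0.34 ± 0.13) and Cldn2, a claudin of the choroid plexus (2.82 ± 0.93), while Cxadr was lower (-0.25 ± 0.11). Cldn2 and Cldn11 also stand on the lists of choroid plexus and oligodendrocyte markers. Of 38 imprinted genes other than Plagl1, 6 were named, with Igf2 (1.03 ± 0.42), Cdkn1c (0.65 ± 0.22), Ddc (0.55 ± 0.18) and Magel2 (0.40 ± 0.17) higher in Tg mice, and Kcnq1ot1 (-0.40 ± 0.12) and Mest (-0.37 ± 0.14) lower.

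Of 30 Arf exchange factors and postsynaptic partners of Iqsec2, 9 were named and 8 of them had lower levels in Tg mice, like Iqsec2 itself: Shank2 (-0.36 ± 0.10) and the NMDA receptor subunit genes Grin2b (-0.34 ± 0.11) and Grin2a (-0.22 ± 0.085) are examples, and the Arf exchange factor gene Psd2 was higher (0.24 ± 0.091). Of 28 genes of long-chain fatty acid handling other than Slc27a2, the 4 that could be named had higher levels in Tg mice, the opposite of Slc27a2: Elovl7 (1.26 ± 0.38), Fa2h (0.89 ± 0.30), Elovl1 (0.66 ± 0.23) and Cpt1a (0.29 ± 0.12). Fa2h is also on the list of oligodendrocyte markers. Of 6 other named cadherins and protocadherins 5 were lower, such as Pcdh19 (-0.31 ± 0.12), and of 5 other named Zfp genes 4 were lower, such as Zfp318 (-0.21 ± 0.087). Over all 1349 named genes 754 were higher and 595 lower.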

How the data were processed

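RNA was measured in 12 brain samples, each from 1 mouse. The authors removed ribosomal RNA, sequenced on an Ion Torrent S5XL, aligned to mm10 with STAR and Bowtie 2, counted unique reads per gene, removed low genes with edgeR and deposited raw counts of 15928 genes. Versions are not given in the sources used here. They also deposited TMM normalization factors, a ratio per library, which the factors recomputed here matched. Names came from matching solved mean normalized counts to the means of the study's DESeq2 table (relative difference under 1e-09, largest 3.98e-10 for the members and at least 1.18e-05 for the next gene). No other column of that table was used.

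Groups and sexes followed the sample labels, and batches the deposited table (batch 1 with 3 Wt and 5 Tg mice, batch 2 with 2 Wt mice labelled female and 2 Tg mice labelled male). The test was the quasi-likelihood test of edgeR 4.0.16 in R 4.3.3 over all genes (sex + batch + genotype; Benjamini-Hochberg adjusted p under 0.1; filterByExpr removed 0 genes), with DESeq2 1.42.0 as an alternative, and the scripts were tested on simulated data. Levels are TMM-normalized CPM, logs use a prior count of 2, and SD and n refer to mice. Marker scores are mean log2 CPM of 16 choroid plexus or 14 oligodendrocyte markers, set against members by two-sided tests with 100000 permutations (Python 3.11.15, scipy 1.17.1). In batch 1 alone and in Tg mice alone every order of the mice was used instead. For each member the 3 most alike named genes were taken, of which some are not reported here. The members and lists were chosen with earlier results of these data known. Methylation data were not used here.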

Additional observations from a re-analysis of the deposited data

Results flagged for a closer look

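In 36 sets of mice (each member in Wt, in Tg, in mice labelled female and in mice labelled male), the gap between the most extreme mouse and its neighbour was compared with the range by Dixon's test on log2 CPM, which chance alone passes in about 1 of 20 sets. It singled out 2 mice. Pcdh7 in Wt mouse 41 stood at 290.1 CPM, while the other 4 Wt mice lay between 206.6 and 217.8 CPM, and the gap was 0.845 of the Wt range. The choroid plexus score of mouse 41 was the lowest of all 12 mice, and its oligodendrocyte score was the lowest as well (-0.56 and 4.46 on the log2 scale). Plagl1 in Tg mouse 92 stood at 21.9 CPM, inside the Wt range of 19.7 to 22.6 CPM, while the other 6 Tg mice lay between 14.0 and 17.0 CPM, and the gap was 0.573 of the Tg range. No member had a difference between the sexes in Tg minus Wt that passed the test.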

How the results depend on the processing

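The alternatives were DESeq2, other scaling or filters, an adjusted p under 0.05, fits without covariates or with a marker score, batch 1 alone, and each mouse left out. Over 188 refits of the members' Tg minus Wt differences none changed sign or was called, and of 188 for the sexes 184 kept sign and side. F11r, female minus male, became 0.094 in batch 1 alone and lay between -0.20 and 0.050 with each mouse left out (above 0 only without Wt mouse 41), and Iqsec2 was called by DESeq2 and without Wt mouse 95. Both calls of Iqsec2 counted mouse 41 as male. Zfp185 could not be fitted under the filter of more than 1 CPM in all libraries. For Tg minus Wt the number of genes called, 1 in the report, was 56 with DESeq2, 2 with the stricter filter or either marker score, 0 in batch 1 alone and 1 to 2 with each mouse left out (2 without Tg mouse 93). For the sexes it was 0, 175 with DESeq2 and 0 to 540 with each mouse left out (1 without Wt mouse 41, 540 without Wt mouse 95). For the difference between the sexes in Tg minus Wt it was 0, 17 with DESeq2 and 0 to 1 with each mouse left out (1 without Tg mouse 32 or Wt mouse 95). Members whose groups did not overlap numbered 0, and 0 to 1 with each mouse left out (F11r without Wt mouse 41, Slc27a2 without Tg mouse 67, Plagl1 without Tg mouse 92, beside 0.709%, 0.465% and 0.571% of all genes). In each case the mouse left out was the only one of its group within the range of the other group. The lack of overlap thus follows from leaving out that mouse. Relations to the marker scores that passed by Pearson's r numbered 2, 6 in batch 1 alone, 0 without the 2 mice farthest from the median score and 1 without mouse 41, and by Spearman's rho 2, 0, 0 and 1. In Tg mice alone, chosen after seeing the data, 2 passed by Pearson's r (F11r and Pcdh7 with the choroid plexus score) and 0 by Spearman's rho, and r of Plagl1 and Gpr146 with that score became 0.15 and -0.12. The cause of these changes was not tested. No paired analysis was possible because the mouse numbers in the labels are not shared between the groups. Counting error at a member's lowest count was 1.88% (Pcdh7) to 30.2% (Zfp185).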
